A study of Homo sapiens with 12 samples.

Results

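OSGIN1 and 5 genes related to duplicated NRF2 target loci were followed through RNA sequencing of 3 non-small cell lung cancer cell lines. The set held OSGIN1 with its paralog OSGIN2, and the transcribed pseudogenes TRIM16L and NMRAL2P with their parent genes TRIM16 and NMRAL1, that is 6 of the 57815 genes listed in each library. OSGIN1, TRIM16L and NMRAL2P were selected on their fall with NRF2 siRNA in these same libraries, and the other 3 genes were taken as their relatives. The values of all 6 in that comparison are therefore given as a description, with no p, and calls are counted only beside the share called over all genes. All 6 passed the filter on low values in each line, which kept genes at 1 FPKM or above in at least 2 of the 4 libraries of the line (FPKM, fragments scaled to transcript length and to the mapped fragments of the library).

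The study used A549 and H2023, labelled lung adenocarcinoma, and H460, labelled large cell carcinoma. All 3 lines carry a KEAP1 mutation in control and treated cells alike. Cells received control siRNA, in duplicate, or an siRNA against NRF2, and RNA was taken after 48 h. The treated group of each line held 1 library with siRNA 28 and 1 library with siRNA 30, so the spread in that group includes the difference between siRNAs. The A549 samples were depleted of ribosomal RNA and the samples of H2023 and H460 were enriched for polyA RNA. Levels in A549 are not compared with levels in the other lines because protocol and line cannot be told apart.

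NRF2, encoded by NFE2L2, is a transcription factor that binds antioxidant response elements and switches on genes of detoxification, glutathione synthesis and iron handling. KEAP1 normally marks NRF2 for degradation, and KEAP1 mutations in lung cancer leave the factor active. Gene duplication can place copies of a gene in a new neighbourhood, where the copy may keep, lose or change the control of its parent. A pseudogene copy can still be transcribed even where it no longer encodes the full protein.

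The targeted gene fell in every treated library. NFE2L2 was left at 15.4% and 22.7% of the control mean in A549 with siRNA 28 and 30, at 6.49% and 5.70% in H2023, and at 5.36% and 9.99% in H460. Between 12732 and 13909 genes reached 1 FPKM in a library, and relative depth within a line lay between 92.7% and 107% of the first control library. Mitochondrial transcripts took 0.892% to 25.96% of the FPKM sum, and in H460 their share was 20.8% and 25.96% with NRF2 siRNA against 8.56% and 13.1% in controls. Epithelial keratins KRT8 and KRT18 were at 298 FPKM or more in every library, EPCAM and CDH1 were at 6.23 FPKM or more in A549 and H2023 but at 1.19 FPKM or less in H460. The lung markers NKX2-1, NAPSA, SFTPB and SFTPA1 did not exceed 1.25 FPKM in any library, and the leukocyte markers PTPRC and CD3E did not exceed 0.47 FPKM. The keratin KRT19 ranged from 7.28 to 461 FPKM, and the collagen genes COL1A1 and COL3A1 reached 7.61 and 8.56 FPKM. Of 14 markers listed, 13 were matched to a gene in the files.

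OSGIN1 was left at 6.03% of its control mean in A549, 5.42% in H2023 and 3.73% in H460. OSGIN1 (ENSG00000140961.8) lies on the plus strand of chromosome 16, from 83964916 to 83999937 in GRCh37, and encodes an oxidative stress induced growth inhibitor. In A549 it was at 39.6 and 49.0 FPKM in the control libraries, at 1.58 FPKM with siRNA 28 and at 3.77 FPKM with siRNA 30. In H2023 the control libraries held 198 and 159 FPKM, against 10.5 FPKM with siRNA 28 and 8.86 FPKM with siRNA 30. In H460 the values were 183 and 141 FPKM in controls, 6.25 FPKM with siRNA 28 and 5.84 FPKM with siRNA 30. Treated and control libraries did not overlap in any line, and over the 11571 genes tested in every line 7.2% lay below both controls with both siRNAs in all 3 lines. On the scale of log2(FPKM + 1) the difference, NRF2 siRNA minus control, came to -3.69 ± 0.31 for A549, -4.07 ± 0.19 for H2023 and -4.52 ± 0.23 for H460 (SE, n = 2 libraries per group). In RNA from a whole culture, a lower level in each cell and a larger share of cells without the transcript cannot be told apart.

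The paralog OSGIN2 did not follow OSGIN1. OSGIN2 (ENSG00000164823.5, chromosome 8, 90914077 to 90940116, plus strand, GRCh37) belongs to the same small family. Its A549 values were 42.3 and 44.2 FPKM in controls, 49.4 FPKM with siRNA 28 and 20.1 FPKM with siRNA 30. In H2023 it was at 69.9 and 63.1 FPKM in controls, at 82.5 FPKM with siRNA 28 and at 17.6 FPKM with siRNA 30. In H460 it was at 35.6 and 24.5 FPKM in controls, at 32.2 FPKM with siRNA 28 and at 9.90 FPKM with siRNA 30. The library with siRNA 28 was above the control mean in all 3 lines and the library with siRNA 30 was below both controls in all 3 lines, so the treated libraries lay on either side of the control mean. The differences of the group means, -0.44 ± 0.40 in A549, -0.77 ± 0.68 in H2023 and -0.68 ± 0.52 in H460 on the log2(FPKM + 1) scale (SE, n = 2), therefore average a library near the controls and a library well below them.

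**Figure D1:**
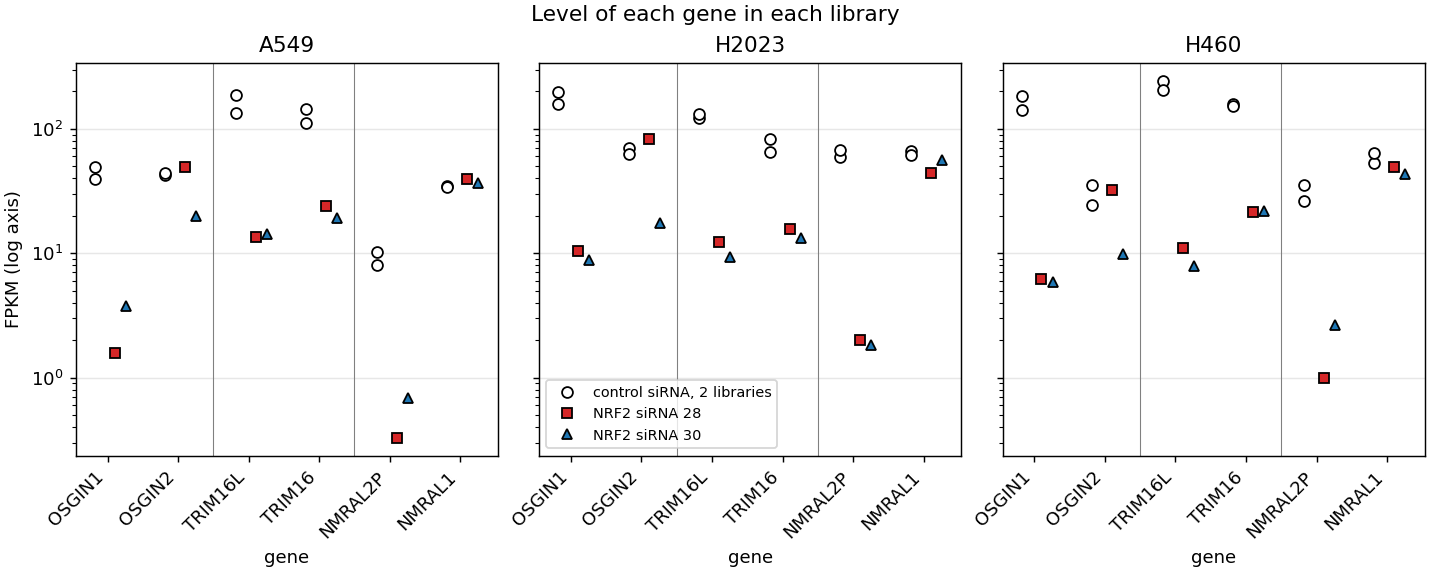
Level of each of the 6 genes in each library, in FPKM on a log axis, with 1 panel per cell line. Open circles are the 2 control siRNA libraries, red squares NRF2 siRNA 28 and blue triangles NRF2 siRNA 30; OSGIN1, TRIM16L, TRIM16 and NMRAL2P sit below their controls with both siRNAs in every panel, while for OSGIN2 only the triangle is low.

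TRIM16 and TRIM16L were both lower with NRF2 siRNA, and in FPKM the pseudogene kept the smaller share of its control level. TRIM16 (ENSG00000221926.7, chromosome 17, 15531274 to 15587625, minus strand) encodes a tripartite motif protein with roles in autophagy of damaged lysosomes and of protein aggregates. TRIM16L (ENSG00000108448.16, chromosome 17, 18625550 to 18638773, plus strand) is annotated as a transcribed unprocessed pseudogene. In A549, TRIM16 was at 145 and 111 FPKM in controls, at 23.8 FPKM with siRNA 28 and at 19.1 FPKM with siRNA 30. TRIM16L in the same libraries was at 188 and 134 FPKM in controls, at 13.4 FPKM with siRNA 28 and at 14.2 FPKM with siRNA 30. In FPKM the copy thus stood above its parent in the A549 controls and below it with either siRNA. This order depends on the FPKM of TRIM16, for which the deposited counts and FPKM values disagree, as given further on.

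The order in FPKM was the same in the other lines, with the same dependence on the FPKM of TRIM16. In H2023, TRIM16 went from 64.7 and 82.9 FPKM in controls to 15.8 FPKM with siRNA 28 and 13.2 FPKM with siRNA 30. TRIM16L in H2023 went from 123 and 133 FPKM to 12.4 FPKM with siRNA 28 and 9.29 FPKM with siRNA 30. In H460, TRIM16 was at 158 and 154 FPKM in controls and at 21.5 and 21.9 FPKM with siRNA 28 and 30. TRIM16L in H460 was at 243 and 206 FPKM in controls, at 11.1 FPKM with siRNA 28 and at 7.89 FPKM with siRNA 30. The ratio of TRIM16L to TRIM16 in FPKM lay between 1.22 and 1.90 in the 6 control libraries, with the copy higher in 6 of 6, and between 0.361 and 0.787 in the 6 treated libraries, with the copy higher in 0 of 6.

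NRF2 siRNA left TRIM16 at 16.8% of its control mean in A549, 19.6% in H2023 and 13.9% in H460, and left TRIM16L at 8.57%, 8.48% and 4.23%. The log2 difference, NRF2 siRNA minus control, was -2.51, -2.27 and -2.79 for TRIM16 and -3.43, -3.46 and -4.44 for TRIM16L in A549, H2023 and H460. The log2 difference of the copy minus that of the parent was -0.92 for A549, -1.19 for H2023 and -1.65 for H460, against a pooled SD between libraries of the same group of 0.20, 0.14 and 0.25 for the log2 ratio of copy to parent (n = 2 per group). No test was run on that gap because the copy was chosen on the comparison, and the shares and the gap depend on the FPKM of TRIM16 as the order does.

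The transcripts of this pair share a part of their sequence at the length of a read. The TRIM16L transcript compared, of 1176 bases, aligned over its whole length with a TRIM16 transcript of 3358 bases, with 15 mismatches, an identity of 98.7%. The longest stretch without a difference was 220 bases, longer than a read of 80 bases. Reads were paired, so a fragment offers a read at each end. Of the 1097 windows of read length in the TRIM16L transcript, 401 (36.6%) occurred letter for letter in a TRIM16 transcript, and 649 of 3279 windows (19.8%) of the TRIM16 transcript occurred in a TRIM16L transcript. The 60 bases of a coding exon of TRIM16 in which the transcripts differ most are shown with their counterpart in an exon of TRIM16L, 5′ to 3′ on the strand of each gene, with the 3 mismatched bases in capitals (GRCh37 reference, chr17:15532453-15532512, minus strand, and chr17:18638190-18638249, plus strand).
TRIM16: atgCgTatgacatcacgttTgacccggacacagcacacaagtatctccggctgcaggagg
TRIM16L: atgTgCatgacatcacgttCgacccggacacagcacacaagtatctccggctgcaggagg

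How reads were shared within this pair bears on the level of each gene and may bear on the sum of both, since how shared reads were counted is not given in the sources used here. The summed FPKM of TRIM16 and TRIM16L in A549 was 333 and 245 in controls, 37.2 with siRNA 28 and 33.4 with siRNA 30, which left 12.2% of the control mean. In H2023 the sum went from 188 and 216 in controls to 28.2 with siRNA 28 and 22.5 with siRNA 30, or 12.6% of the control mean. In H460 it went from 401 and 361 to 32.6 with siRNA 28 and 29.8 with siRNA 30, or 8.19%. The combined output of both loci was thus lower in every treated library than in any control library of its line.

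The 2 kinds of deposited value placed TRIM16 differently. The authors' mean normalised count over the 4 libraries of a line was 1330 for TRIM16 and 3660 for TRIM16L in A549, 300 and 1251 in H2023, and 528 and 1810 in H460, so that TRIM16L had 2.75, 4.18 and 3.43 times the count of TRIM16 although its transcript is shorter. Divided by mean FPKM and by the length in kilobases of the transcript compared here, TRIM16 had 5.31, 2.02 and 1.77 counts in A549, H2023 and H460, whereas the other 5 genes had 23.5 to 56.1 in A549, 11.5 to 24.0 in H2023 and 9.17 to 23.2 in H460. The part of the shared sequence in the low count of TRIM16 was not tested, and neither the FPKM ratio of copy to parent nor their order in the treated libraries is settled while the 2 kinds of value disagree.

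NMRAL2P and NMRAL1 parted more sharply. NMRAL2P (ENSG00000171658.4, chromosome 3, 185677828 to 185697626, plus strand) is a transcribed unprocessed pseudogene whose RNA has been described as a coactivator of NQO1, the NRF2 target that encodes a quinone reductase. NMRAL1 (ENSG00000153406.9, chromosome 16, 4511692 to 4545764, minus strand) encodes a protein that binds NADPH. In A549, NMRAL2P was at 8.02 and 10.2 FPKM in controls, at 0.328 FPKM with siRNA 28 and at 0.691 FPKM with siRNA 30. In H2023 it was at 59.0 and 67.5 FPKM in controls, at 1.99 FPKM with siRNA 28 and at 1.84 FPKM with siRNA 30. In H460 it was at 35.2 and 26.5 FPKM in controls, at 0.991 FPKM with siRNA 28 and at 2.66 FPKM with siRNA 30. NMRAL2P was thus left at 5.60% of its control mean in A549, 3.03% in H2023 and 5.92% in H460. Both treated libraries lay below both controls in all 3 lines, as held for 7.2% of the 11571 genes tested in every line.

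NMRAL1 was at 109.7% of its control mean in A549, 79.2% in H2023 and 79.1% in H460. In A549 it was at 34.9 and 34.3 FPKM in controls, at 39.4 FPKM with siRNA 28 and at 36.5 FPKM with siRNA 30. In H2023 it was at 65.9 and 61.9 FPKM in controls, at 44.6 FPKM with siRNA 28 and at 56.6 FPKM with siRNA 30. In H460 it was at 53.4 and 64.2 FPKM in controls, at 49.4 FPKM with siRNA 28 and at 43.6 FPKM with siRNA 30. The treated libraries lay just above the controls in A549 and just below them in H2023 and H460. Of the 11571 genes tested in every line, 7.77% had treated libraries on opposite sides of the controls in A549 and in H2023 or H460. Its log2 differences, NRF2 siRNA minus control, were 0.13 ± 0.13, -0.34 ± 0.18 and -0.33 ± 0.22 (SE, n = 2), against -2.74 ± 0.21, -4.46 ± 0.19 and -3.55 ± 0.37 for NMRAL2P. The log2 difference of NMRAL2P minus that of NMRAL1 was thus -2.87, -4.12 and -3.22 in A549, H2023 and H460, and with a pseudocount of 0.1 in place of 1 the values were -4.11, -4.63 and -3.81.

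This copy is far from its parent in sequence. The NMRAL2P transcript, of 891 bases, aligned with an NMRAL1 transcript of 1092 bases over 599 bases with 190 mismatches, an identity of 68.3%, and the longest run without a difference was 18 bases. None of the 812 windows of 80 bases in the NMRAL2P transcript occurred in an NMRAL1 transcript (0 of 812). The aligned 60 bases within a coding exon of NMRAL1 with the most differences are shown beside the counterpart exon of NMRAL2P, with the 30 mismatched bases in capitals (GRCh37 reference, chr16:4513664-4513723, minus strand, and chr3:185693083-185693142, plus strand).
NMRAL1: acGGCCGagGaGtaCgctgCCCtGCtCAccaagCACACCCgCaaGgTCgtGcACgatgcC
NMRAL2P: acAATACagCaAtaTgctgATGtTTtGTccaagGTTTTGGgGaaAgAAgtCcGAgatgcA

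**Figure D2:**
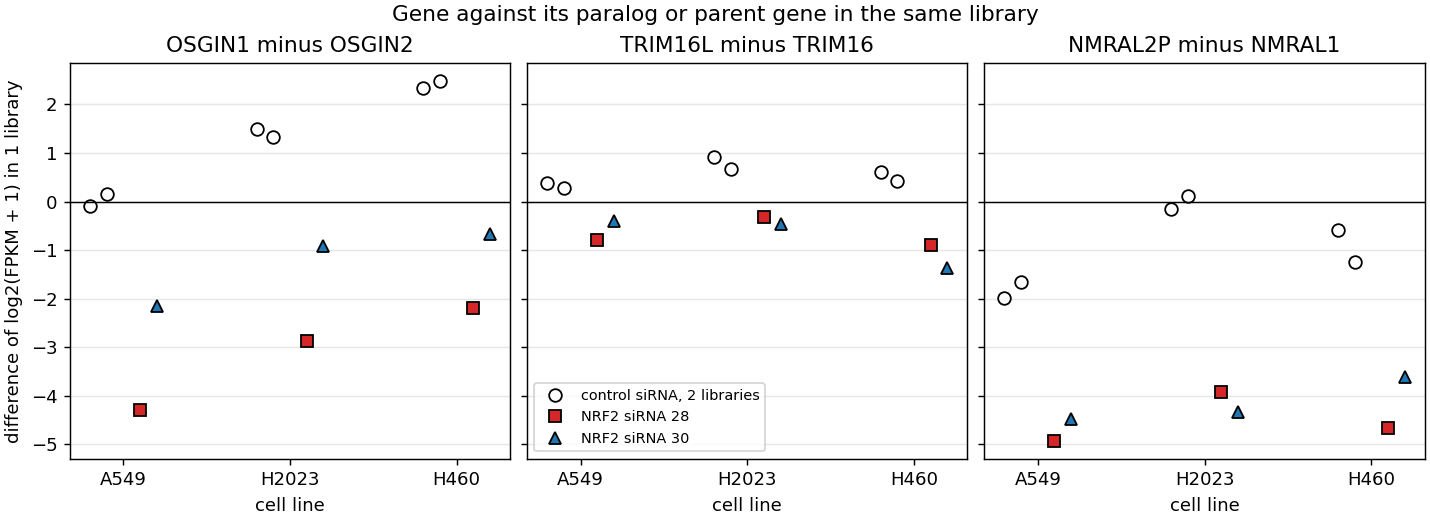
Difference between a gene and its paralog or parent in the same library, as log2(FPKM + 1) of the first minus that of the second, by cell line. Open circles are control siRNA libraries, red squares siRNA 28 and blue triangles siRNA 30; the points of TRIM16L minus TRIM16 lie above 0 in all 6 controls and below 0 in all 6 treated libraries, and those of NMRAL2P minus NMRAL1 drop to between -4.93 and -3.61 with NRF2 siRNA.

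OSGIN1 and OSGIN2 aligned over the shortest stretch of the 3 pairs. The nucleotide alignment of an OSGIN1 transcript of 1922 bases with an OSGIN2 transcript of 4230 bases covered 109 bases with an identity of 74.3%, and 0 of 1843 windows of read length were shared. The ratio of OSGIN1 to OSGIN2 in FPKM was 0.938 and 1.11 in A549 controls, 2.83 and 2.52 in H2023 controls and 5.15 and 5.77 in H460 controls. With siRNA 28 it was 0.0319, 0.127 and 0.194 in A549, H2023 and H460, and with siRNA 30 it was 0.187, 0.503 and 0.591. OSGIN1 was thus below OSGIN2 in 6 of 6 treated libraries and above it in 5 of 6 control libraries, and in each line the ratio was higher with siRNA 30, with which OSGIN2 was lower.

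In the fit of each line, by limma on log2(FPKM + 1) with Benjamini-Hochberg adjustment, OSGIN1, TRIM16, TRIM16L and NMRAL2P had an adjusted p under 0.05 as lower, 4 of the 6 genes, in all 3 lines. Over all genes tested, 0.554% were called lower in A549, 0.583% in H2023 and 6.86% in H460, and 0.122%, 0.327% and 7.12% were called higher, where 0 of the 6 genes were. In A549, NMRAL2P passed the filter on low values through its control libraries alone, so a difference was built into its entry. Nothing is read from the share among the 6, since this comparison chose 3 of them and their calls were fixed by that choice. The calls also depended on single libraries. Without control library 0 the numbers called lower in A549, H2023 and H460 were 3, 0 and 0, of 24, 0 and 0 genes called lower in all. In the absence of control library 1 the same numbers came to 3, 2 and 2 of 38, 11 and 4 genes. Without the library of siRNA 28 they were 5 in each line, OSGIN2 included, of 193, 801 and 1748 genes. The direction of each of these 4 genes was the same in those fits.

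Among 38 known NRF2 targets, 25 were called lower (adjusted p under 0.05 by limma) in A549, 22 in H2023 and 28 in H460. In no line was a target called higher, and 16 were called lower in all 3. Over all genes 0.554%, 0.583% and 6.86% were called lower and 0.122%, 0.327% and 7.12% were called higher. Of the 11571 genes tested in every line, 32 (0.277%) were called lower in all 3. The median log2 difference of the list was -1.94, -1.97 and -1.93, against 0.02, 0.02 and -0.01 for all genes tested. AKR1B10, an aldo-keto reductase, moved most over the 3 lines (-3.59, -4.66 and -5.98 in A549, H2023 and H460, past the threshold in 2 lines), followed by the ferritin light chain FTL (-3.52, -3.57 and -3.74, past it in 2 lines) and the nuclear receptor gene NR0B1 (-3.28, -4.16 and -3.28, past it in 3 lines). On that scale, 1, 2 and 1 of the 38 targets had a larger drop than OSGIN1 in A549, H2023 and H460. For TRIM16L these numbers were 3, 5 and 1, for NMRAL2P 7, 1 and 4, and for TRIM16 12, 13 and 10. OSGIN1, TRIM16L and NMRAL2P were chosen on this fall, so nothing is read from their places among the targets. The place of TRIM16 rests on FPKM values that disagree with the deposited counts. The count in the list depended on single libraries: it was 15 in A549 without control library 0, 0 and 4 in H2023 without control library 0 and 1, and 0 and 1 in H460 without control library 0 and 1.

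NQO1, whose expression NMRAL2P is described to promote, fell less deeply than NMRAL2P in FPKM. It was left at 16.4% and 22.3% of its control mean with siRNA 28 and 30 in A549, at 11.9% and 10.4% in H2023 and at 19.6% and 33.8% in H460. NMRAL2P was left at 3.61% and 7.59%, 3.15% and 2.91%, and 3.21% and 8.63% in the same libraries. In A549 and H460 both genes kept more with siRNA 30, and in H2023 both kept less with it. NFE2L2 itself showed the same order of the siRNAs in each line.

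The genes most like each member were taken over the 12 libraries, as the smallest root mean square difference of log2(FPKM + 1) after subtraction of the control mean of the line, among 11571 genes. OSGIN1 was closest to NR0B1 (0.57 log2 units), to GCLM, the modifier subunit of glutamate-cysteine ligase (0.66), and to SRXN1, which encodes sulfiredoxin (0.70). TRIM16L was closest to GCLM (0.42), SRXN1 (0.53) and NR0B1 (0.57). TRIM16 was closest to GCLC, the catalytic subunit of the same ligase (0.24), then to PTGR1 (0.35) and to the autophagy receptor gene SQSTM1 (0.36). NMRAL2P was closest to NFE2L2 (0.35), NR0B1 (0.40) and the cytochrome gene CYP4F11 (0.52). OSGIN2 was closest to DLD (0.17), CHMP5 (0.19) and ERBIN (0.19), and NMRAL1 to EFCAB7 (0.09), WDR53 (0.10) and CMC2 (0.10). The measure uses the change with NRF2 siRNA on which members were chosen, so a deeply reduced gene is close to other deeply reduced genes by construction.

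The genes beside each member were examined in the same fits. The 36 neighbours were the 3 nearest on each side of each gene, among genes that passed the filter in at least 1 line. Of these, 0 of 29 tested passed the threshold in A549 and 0 of 31 in H2023. In H460, where 6.86% and 7.12% of all genes were called lower and higher, 6 of 33 neighbours were called lower and 2 higher. Their median log2 difference was 0.09, -0.03 and -0.15, on a scale that understates changes of genes near 1 FPKM. The 3 neighbours with the largest change among those past the threshold in at least 1 line were CDH13 beside OSGIN1 (1.93 in H460, the only line in which it was tested), NECAB2 beside OSGIN1 (-1.29 in H2023 and -1.74 in H460) and DGKG beside NMRAL2P (-1.23, -1.49 and -1.50 in A549, H2023 and H460). MLYCD, which overlaps OSGIN1 in the annotation on the same strand, was at -0.11, -0.34 and 0.08, and HMOX2, which overlaps NMRAL1 on the opposite strand, was at 0.05, -0.37 and -0.69. NBN, which overlaps OSGIN2 on the opposite strand, was at 0.01, 0.78 and -0.34. The methods name a strand-specific library kit, but whether the counting used strand is not given in the sources used here. Reads in the regions where NMRAL1 meets HMOX2 and OSGIN2 meets NBN may therefore be shared. Where MLYCD overlaps OSGIN1 on the same strand, strand could not separate their reads.

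**Figure D3:**
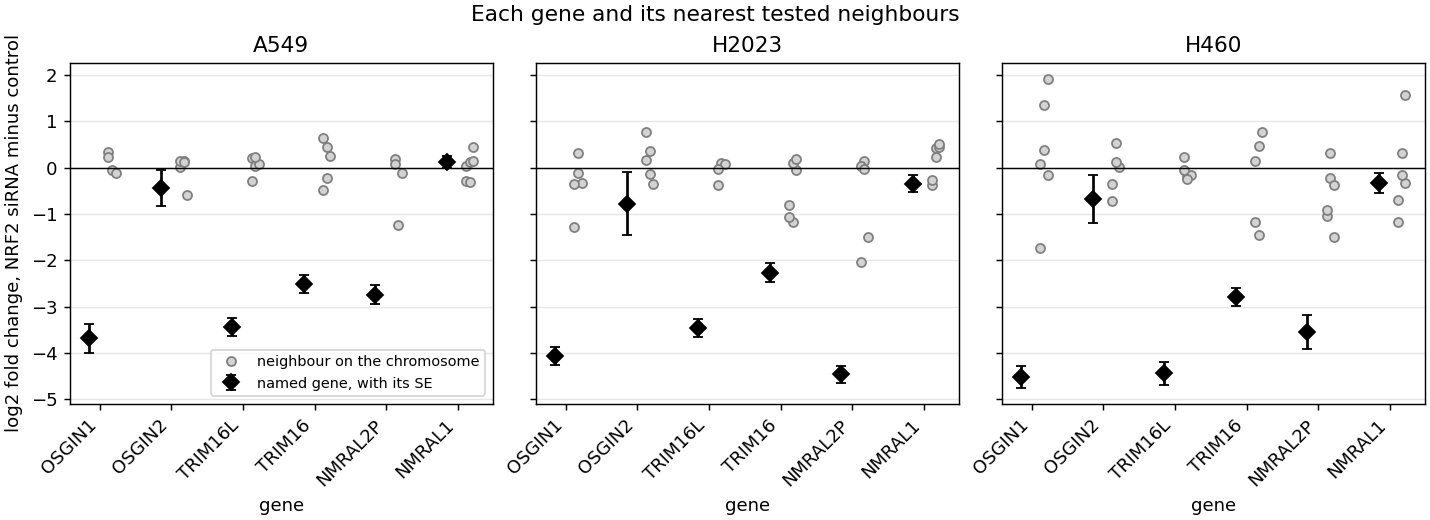
Log2 difference on the log2(FPKM + 1) scale, NRF2 siRNA minus control siRNA, of each named gene (black diamonds, bars are the SE) and of its nearest tested neighbours on the chromosome (grey circles), by line. OSGIN1, TRIM16L, TRIM16 and NMRAL2P lie between -4.52 and -2.27, and no neighbour in any panel lies below -2.03.

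The next gene past the 3′ end was also examined for each member, a choice made after the values were seen, among genes averaging at least 0.1 FPKM in the controls. NECAB2 starts 1911 bases past OSGIN1 on the same strand and was at 1.34 and 1.98 FPKM in H2023 controls against 0.168 and 0.00173 FPKM with siRNA 28 and 30, and at 2.72 and 2.46 FPKM in H460 controls against 0.00367 and 0.152 FPKM. In A549 it was at 0.473 and 0.147 FPKM in controls against 0.0652 and 0.135 FPKM. CDRT1 lies 8447 bases past TRIM16 and FBXW10 lies 8565 bases past TRIM16L, each on the strand of its neighbour, and these genes are themselves a duplicate pair. CDRT1 was at 2.44 and 2.56 FPKM in H2023 controls against 0.948 and 0.430 FPKM with siRNA 28 and 30, and FBXW10 at 0.786 and 0.922 FPKM against 0.150 and 0.136 FPKM. NECAB2, CDRT1 and FBXW10 were below both controls with both siRNAs in 3 of 3 lines, as were 4.43% of the 21518 genes averaging at least 0.1 FPKM in the controls, and their control levels did not exceed 2.72 FPKM. DNAJA3, 4915 bases past NMRAL1 on the opposite strand, was also below its controls in 3 of 3 lines, and DECR1, past OSGIN2, in 0 of 3. RN7SL637P, past NMRAL2P on the opposite strand, was listed at 0 in all 4 A549 libraries and was below its controls in 2 of 3 lines.

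The duplicated blocks of chromosome 17 that hold TRIM16 and TRIM16L carry other gene pairs. Of the 8 genes listed, 4 were tested in A549, 5 in H2023 and 4 in H460, and only ZNF286A in H460 passed the threshold, as lower. Over all genes, 6.86% were called lower in H460 and under 1% in the other lines. ZNF286A, a zinc finger gene beside TRIM16, was at -0.47, -0.80 and -1.18 in A549, H2023 and H460, and its copy ZNF286B beside TRIM16L at -0.30, -0.03 and -0.24. TVP23C was at 0.65, 0.10 and 0.14, and TVP23B at 0.21, -0.38 and 0.24. CDRT1 was tested in H2023 only (-1.07). FBXW10, TBC1D26 and TBC1D28 were below the filter in every line, so FBXW10, the partner of CDRT1, was not tested and its FPKM values are those given with CDRT1 above. TBC1D26 and TBC1D28 did not exceed 0.0787 FPKM in any library.

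Of 104 other tripartite motif genes, 38 were tested in A549, 42 in H2023 and 38 in H460. In A549 and H2023 0 passed the threshold. In H460 TRIM2 was called higher (1.72) and TRIM14 lower (-1.38), where 7.12% and 6.86% of all genes were called higher and lower. The median of the family was 0.04, 0.20 and 0.02 in A549, H2023 and H460. Among 14 genes that act with TRIM16 in autophagy, SQSTM1 was at -2.31, -1.94 and -2.62, past the threshold in 2 lines, and it is also one of the listed NRF2 targets. KEAP1 was at -0.65, -1.27 and -1.62 and TFEB, a regulator of lysosome genes, at 0.34, 0.76 and 1.42, each past the threshold in 1 line. In all, 1 of the 14 was called lower in A549, 0 in H2023 and 2 in H460, where 2 were called higher. Over all genes 0.554%, 0.583% and 6.86% were called lower, and 7.12% were called higher in H460.

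The 2 NRF2 siRNAs were compared directly, since that contrast had no part in choosing the genes. The fit held the 6 treated libraries with cell line as a covariate, with 1 library per siRNA and line. OSGIN2 was higher with siRNA 28 than with siRNA 30 in 3 of 3 lines, by 1.26 log2 units in A549, 2.17 in H2023 and 1.61 in H460. The average difference was 1.68 ± 0.20 (SE), a factor of 3.19, with an unadjusted p of 2.12e-04 by limma and an adjusted p of 0.123, which is the smallest adjusted p of the fit. The result therefore did not pass the threshold over the 15716 genes tested, of which 0.0% did, while 2853 had an unadjusted p under 0.05. OSGIN2 ranked at place 20 by p. With the 4 polyA-selected libraries of H2023 and H460 alone OSGIN2 passed, at 1.89 and an adjusted p of 0.0188 by limma, as 1 of 132 genes called (0.913%), and the range of adjusted p over all alternatives was 0.00305 to 0.853.

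The other 5 genes did not pass the threshold between siRNAs. The difference, siRNA 28 minus siRNA 30, was -0.20 ± 0.26 for OSGIN1 (adjusted p = 0.712 by limma), 0.17 ± 0.14 for TRIM16 (0.546), 0.25 ± 0.17 for TRIM16L (0.487), -0.02 ± 0.15 for NMRAL1 (0.958) and -0.38 ± 0.22 for NMRAL2P (0.415), each as a log2 difference with its SE. The sign differed between lines for each of the 5. With 1 library per siRNA in a line, 6 libraries cannot show that the siRNAs act alike on these genes.

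**Figure D4:**
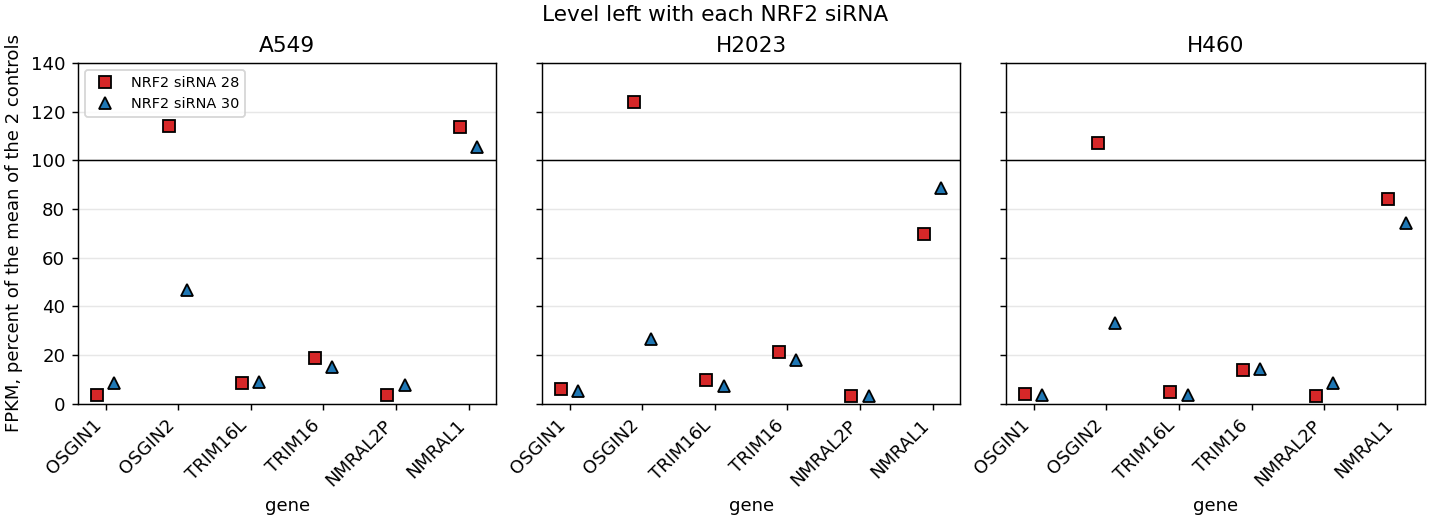
FPKM left with siRNA 28 (red squares) and siRNA 30 (blue triangles), in percent of the mean of the 2 control libraries of the same line, with the line at 100 as the control mean. For OSGIN2 the squares stand at 107 to 124% and the triangles at 26.5 to 46.5%, and for OSGIN1, TRIM16L and NMRAL2P all points are at 9.70% or less.

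Control levels were compared between H2023 and H460, which share a protocol. In a fit of their 8 libraries, TRIM16 was lower in H2023 than in H460 by 1.08 ± 0.19 log2 units (SE, adjusted p = 0.00395 by limma), with 64.7 and 82.9 FPKM against 158 and 154. TRIM16L was lower by 0.80 ± 0.22 (adjusted p = 0.0262 by limma), with 123 and 133 FPKM against 243 and 206. NMRAL2P was higher in H2023 by 1.02 ± 0.31 (adjusted p = 0.0358 by limma), with 59.0 and 67.5 FPKM against 35.2 and 26.5. With a pseudocount of 0.1 in place of 1 NMRAL2P did not pass (adjusted p = 0.0862 by limma). The control libraries of the lines did not overlap for these 3 genes, nor for OSGIN2, and this held for 75.9% of all genes tested. OSGIN1 (0.14 ± 0.21, adjusted p = 0.634 by limma), NMRAL1 (0.12 ± 0.19, 0.653) and OSGIN2 (1.14 ± 0.71, 0.249) did not pass. Thus 3 of 6 genes differed where 34.6% of all genes did, and with 6 genes nothing is read from that share. Leaving out any 1 control library, with 16.7% to 21.3% of all genes called, left only TRIM16 of the 6 past the threshold, and then TRIM16L had an adjusted p of 0.0660 to 0.148 and NMRAL2P of 0.0799 to 0.179. In the 4 control libraries alone, OSGIN2 also passed (adjusted p = 0.00586 by limma), as 1 of 4 of the 6 genes, where 48.8% of all genes did. The control libraries are biological duplicates per the methods. In the fit of 8 libraries the spread also came from the treated libraries, so its p-values include the difference between the NRF2 siRNAs. Only the p-values from the 4 control libraries alone rest on the spread between control cultures.

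The antioxidant response element core, TGACNNNGC, was searched on both strands of promoter windows reaching from 250 bases before to 50 bases after a gene start (RefSeq, GRCh38.p14). The search covered 4 windows for 3 of the 6 genes, OSGIN1, TRIM16 and NMRAL1, and 0 of the 4 contained the core. Of all 35116 windows, 4687 (13.3%) contained it. The absence of these letters from a window of 300 bases says nothing about binding elsewhere. OSGIN2 was left out of the search by choice, and no window was found for TRIM16L and NMRAL2P.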

How the data were processed

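Each of the 12 libraries had 1 deposited file of FPKM values, which the authors scaled to transcript length and library size. For the authors' pipeline, the labels name STAR 2.5.3a, Cuffnorm, HTSeq and DESeq2, while the methods name TopHat Alignment 1.0.0 and Cufflinks 2.3.1 (hg19), so the aligner and the treatment of reads shared by similar transcripts are uncertain. DESeq2 tables deposited by the authors gave mean normalised counts, a signal over the 4 libraries of a line, quoted as the authors' mean. Their fold changes and p-values were not used. Values under 1e-06 FPKM, 12710 in all, were treated as 0.

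Genes at 1 FPKM or above in at least 2 libraries of a fit were tested by limma 3.58.1 (R 4.3.3) on log2(FPKM + 1), with the prior variance following the mean and Benjamini-Hochberg adjustment at 0.05. The pseudocount understates changes of low genes. Identifiers were matched to GENCODE 44 lifted to GRCh37 (96.1%), and transcripts were aligned locally with Biopython 1.88. Fits were tested on simulated data. Members and gene lists were chosen with earlier results of these data known. Named genes were the members, NFE2L2, NQO1, the 3 genes of each list with the largest mean change among those past the threshold in at least 1 line, and the 3 genes most like each member. All 8 genes of the chromosome 17 pairs were named as a list, and overlapping or next downstream genes were named after their values were seen.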

Additional observations from a re-analysis of the deposited data

Results flagged for a closer look

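NMRAL1 lay on opposite sides of its controls in different lines. Both treated libraries lay above both controls in A549 (log2 difference 0.13) and below both controls in H2023 (-0.34) and H460 (-0.33). The difference between lines was not tested, and A549 was prepared by another protocol than H2023 and H460. Of genes tested in every line, 7.77% lay on opposite sides in this way, in A549 against H2023 or H460. None of the 3 values passed the threshold in its line, and with mitochondrial transcripts left out of the scaling the A549 value was 0.02.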

How the results depend on the processing

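OSGIN1, TRIM16, TRIM16L and NMRAL2P stayed lower with NRF2 siRNA under every pseudocount, scaling and left-out library tried, and leaving out mitochondrial transcripts moved the median of all genes from 0.02 to -0.07 in A549, from 0.02 to 0.10 in H2023 and from -0.01 to 0.12 in H460. With a pseudocount of 0.1, NMRAL2P minus NMRAL1 was -4.11, -4.63 and -3.81 in A549, H2023 and H460. Over left-out libraries, OSGIN1 minus OSGIN2 ranged from -4.32 to -2.18 in A549, -4.27 to -2.32 in H2023 and -4.60 to -3.08 in H460, and TRIM16L minus TRIM16 stayed between -1.88 and -0.73.

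The count of NRF2 targets called lower came to 9, 1 and 0 for A549, H2023 and H460 with no filter on low values. In H2023 the count was 12 without the trend and 35 in the fit of all 12 libraries. Of the 6 genes, 0, 1 and 1 were called lower in the 3 lines without the filter, of 169, 71 and 61 genes in all. The count of targets ranged over left-out libraries from 15 to 30 in A549, 0 to 36 in H2023 and 0 to 30 in H460.

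In the siRNA comparison OSGIN2 was the 1 of the 6 genes past the threshold in the polyA-selected libraries, where 132 of all genes were. The same held in all 12 libraries, an alternative added after seeing the data, where 350 were. OSGIN2 alone of the 6 also passed without either A549 library, where 0.601% and 0.627% of all genes did. Without any other library 0 of the 6 passed. OSGIN1 turned to 0.15 without either A549 library and in the polyA-selected libraries (range over left-out libraries -0.40 to 0.15), and NMRAL1 to 0.14 without either H2023 library (-0.12 to 0.14). Between H2023 and H460 controls the count of the 6 was 1 with no filter (4.8% of all genes) and 2 with a pseudocount of 0.1 (35.8%). There OSGIN1 turned to -0.02 without H2023 control 0 and to -0.048 without H460 control 1 (-0.048 to 0.33), and NMRAL1 to -0.0086 without H460 control 0 (-0.0086 to 0.25).

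No source used here says that a replicate number marks a shared batch or day, and the number of a treated library also names its siRNA. Differences between numbers correlated over genes at -0.03, 0.31 and 0.16 in A549, H2023 and H460. That is under 0.1 in A549 and over it in the other lines, so a pairing is neither given nor shown for all lines. With the replicate block 65, 298 and 1530 genes were called lower, and 24, 36 and 31 of the NRF2 targets were. Between H2023 and H460 controls 3 of the 6 genes then passed (37.4% of all genes). The causes of these changes were not tested.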
